A study of Mus musculus and Homo sapiens with 15 samples.

Results

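Immediate early genes and the subunits of the transcription factor AP-1 were followed through RNA sequencing libraries of p53-mutant T-cell lymphomas, grafted tumours and leukaemia cells with and without arsenic trioxide (ATO). The set was a list of 10 gene symbols: the FOS family (Fos, Fosb, Fosl1 and Fosl2), the JUN family (Jun, Junb and Jund), and the stress and growth factor response genes Egr1, Atf3 and Ier3. The symbols, in capitals for human genes, were matched to the gene symbol column of each deposited table. All 10 were found among 52340 genes of the W/W table, 56691 genes of the C57 table and 61806 genes of the U937 table.

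AP-1 is a dimer of leucine zipper proteins in which a JUN protein pairs with a FOS protein, another JUN protein or a member of the ATF, MAF or BATF groups. Most of its genes, like Egr1 and Ier3, are transcribed within minutes of a growth factor, antigen receptor or stress signal, without new protein synthesis, and their mRNAs are short-lived. In developing T cells these factors act downstream of the T-cell receptor and the MAP kinases.

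The deposited study compared tumours and cells given ATO with separate untreated ones. ATO is an arsenic compound used against acute promyelocytic leukaemia. The W/W mice carry p53 R282W, a missense change in the DNA-binding domain, on both alleles in every group, controls included. Their thymus tumours were taken at day 150 of life from a water group (n = 3) and from 2 ATO groups, labelled by tumour progression (n = 3) or tumour regression (n = 3). The grafts came from C57 mice that had received either PBS, a saline buffer (n = 2), or ATO (n = 2), and U937, a myeloid leukaemia cell line of human origin made to express p53 R282W, gave 1 PBS and 1 ATO library. The labels call the graft a CDX model with genotype WT and do not name its cell line or its p53 status. ATO dose and duration, the sex of the mice and whether the U937 cells were 1 clone are not given in the sources used here. Outcome defines the ATO groups of W/W mice, so treatment and outcome cannot be told apart when 1 of them is compared with water.

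Each library held 12800367 to 17872972 counted reads. Mitochondrial transcripts took 2.08% to 8.83% of the counts in W/W libraries, and the TMM scaling factors were lowest in water replicate 2 (0.748) and progressing replicate 2 (0.794). T-cell markers were present in all W/W and C57 libraries, at a summed level of 1539 to 5051 CPM (counts scaled to a common library size). Among 10 human myeloid markers, the sum was 3303 CPM after PBS and 1078 CPM after ATO in U937, and the lymphoid markers CD3D and MS4A1 were at 0 in both libraries. The labels do not say that replicates were separate litters or runs, so the p-values measure the spread between these samples. In bulk tissue, fewer cells of a type and less RNA per cell cannot be told apart.

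The regions just upstream of these genes hold well-known signal-response elements, and 9 promoters are shown here. ATF3, IER3, JUN and FOS are the members past 2-fold in the human cells, and mouse Fosb and Fosl2 those called in the grafts. EGR1 is shown for its CArG boxes, and mouse Fos and Atf3 for the elements they share with the human genes. In the main edgeR fits neither mouse gene was called. Each is the 250 bases before the start, written 5′ to 3′ on the gene's strand. Capitals mark matches, on either strand, to the CArG box bound by serum response factor, to the cAMP response element TGACGTCA or its shorter core TGACGT (reverse complement ACGTCA), to the AP-1 site TGANTCA, and to TATAAA. The core lies inside the longer element, and it was added after the sequences had been seen. Human sequences are GRCh38 upstream of GENCODE v44 canonical starts, and mouse sequences are from RefSeq on GRCm38.p6, which matched 8 of the 10 mouse members. The starts used for ATF3 and FOSL2 lie inside the outer limits of the gene in both species, as does that for human FOSL1. The mouse Fosl2 window shown lies wholly inside the gene, whose outer start is at 32135801.
Human ATF3, chr1:212608511-212608760, + strand: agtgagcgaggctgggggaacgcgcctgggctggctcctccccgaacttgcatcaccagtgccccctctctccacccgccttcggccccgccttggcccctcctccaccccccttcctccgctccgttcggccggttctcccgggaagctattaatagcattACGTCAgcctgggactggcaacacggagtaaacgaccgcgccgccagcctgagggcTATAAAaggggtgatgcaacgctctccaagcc
Human IER3, chr6:30744548-30744797, - strand: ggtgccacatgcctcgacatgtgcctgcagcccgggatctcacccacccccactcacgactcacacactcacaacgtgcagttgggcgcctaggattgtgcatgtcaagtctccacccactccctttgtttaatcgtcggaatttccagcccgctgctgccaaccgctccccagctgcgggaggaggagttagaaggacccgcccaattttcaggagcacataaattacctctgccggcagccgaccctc
Human JUN, chr1:58784048-58784297, - strand: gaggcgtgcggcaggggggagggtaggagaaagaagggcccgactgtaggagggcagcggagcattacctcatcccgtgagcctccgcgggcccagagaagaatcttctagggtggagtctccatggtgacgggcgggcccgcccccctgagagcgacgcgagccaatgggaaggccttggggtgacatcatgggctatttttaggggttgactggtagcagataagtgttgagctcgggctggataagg
Human FOS, chr14:75278578-75278827, + strand: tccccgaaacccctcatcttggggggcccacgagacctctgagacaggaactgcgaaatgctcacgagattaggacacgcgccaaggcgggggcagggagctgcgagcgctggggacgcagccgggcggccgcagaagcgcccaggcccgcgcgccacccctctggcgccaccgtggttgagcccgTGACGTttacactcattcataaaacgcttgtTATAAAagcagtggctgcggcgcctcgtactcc
Human EGR1, chr5:138465229-138465478, + strand: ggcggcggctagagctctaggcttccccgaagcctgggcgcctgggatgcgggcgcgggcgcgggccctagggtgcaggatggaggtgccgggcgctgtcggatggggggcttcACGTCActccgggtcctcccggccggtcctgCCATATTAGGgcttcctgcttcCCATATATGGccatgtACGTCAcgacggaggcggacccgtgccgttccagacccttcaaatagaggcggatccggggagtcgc
Mouse Fos, chr12:85473640-85473889, + strand: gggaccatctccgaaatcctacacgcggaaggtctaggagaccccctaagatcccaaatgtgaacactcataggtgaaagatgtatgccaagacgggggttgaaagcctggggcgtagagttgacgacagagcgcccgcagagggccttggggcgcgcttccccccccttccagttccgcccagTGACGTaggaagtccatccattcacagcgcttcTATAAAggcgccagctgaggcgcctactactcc
Mouse Atf3, chr1:191183334-191183583, - strand: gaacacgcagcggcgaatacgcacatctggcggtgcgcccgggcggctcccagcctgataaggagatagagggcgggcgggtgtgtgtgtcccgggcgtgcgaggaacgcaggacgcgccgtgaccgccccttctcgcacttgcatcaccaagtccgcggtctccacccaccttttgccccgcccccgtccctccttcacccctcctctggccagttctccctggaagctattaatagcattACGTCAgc
Mouse Fosb, chr7:19310046-19310295, - strand: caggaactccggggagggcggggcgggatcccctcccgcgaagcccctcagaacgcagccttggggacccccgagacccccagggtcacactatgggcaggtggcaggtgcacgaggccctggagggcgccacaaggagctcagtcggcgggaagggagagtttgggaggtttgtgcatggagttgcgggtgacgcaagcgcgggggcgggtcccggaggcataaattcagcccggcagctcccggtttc
Mouse Fosl2, chr5:32136222-32136471, + strand: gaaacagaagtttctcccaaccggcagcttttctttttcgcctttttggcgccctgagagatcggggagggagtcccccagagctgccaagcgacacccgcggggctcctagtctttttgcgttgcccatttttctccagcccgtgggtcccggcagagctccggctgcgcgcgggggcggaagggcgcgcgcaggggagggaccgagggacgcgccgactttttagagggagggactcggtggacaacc

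The short core TGACGT was present upstream of 7 of the 10 human members, against 8.58% of 20044 human protein-coding promoters of the same length. Because the core was chosen after these sequences had been seen, its frequency among the members is a description and shows no enrichment. In FOS the core lay 59 to 64 bases before the start and in mouse Fos 61 to 66 bases before it. TATAAA was present upstream of 4 of the 10 human members (FOS, FOSB, JUNB and ATF3), against 9.34% of promoters, at 25 to 33 bases before the start. EGR1 held 2 CArG boxes, 74 to 83 and 96 to 105 bases before its start, whereas 1.12% of human promoters held 1 or more. The full element TGACGTCA was found upstream of JUND (2.41% of promoters) and the AP-1 site upstream of none of the members (4.73%). IER3, JUN, mouse Fosb and mouse Fosl2 had no match to any of these motifs within this window. In mouse, TGACGT was found upstream of Fos and Atf3, 2 of 8 members matched, against 6.47% of 32851 promoters, and TATAAA upstream of Fos (12.4% of promoters). The window of mouse Jund, 1 of these 8, held no match but did not border the counted gene. It ended at 70697738, and the gene starts at 70698949 on the + strand. These matches are letters in a window and show no binding.

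Levels of different genes were compared by the authors' FPKM values, which correct for gene length. In the water-treated lymphomas the JUN family lay far above the FOS family. Jund, the JUN protein found in most resting cells, stood at 50.2 ± 22.7 FPKM (SD, n = 3) and Junb, a JUN protein with weaker activating capacity, at 26.2 ± 6.86 FPKM. Jun, the main partner of Fos, was at 9.48 ± 4.48 FPKM and Egr1, a zinc finger factor induced through the serum response element, at 9.42 ± 3.06 FPKM. The order went on through Ier3 (4.29 ± 3.64 FPKM), Atf3 (2.85 ± 2.01 FPKM), Fosl2 (2.47 ± 1.11 FPKM) and Fos (2.11 ± 0.843 FPKM). Fosb was at 0.210 ± 0.0529 FPKM and Fosl1 at 0.0200 ± 0.0173 FPKM. The library values of neighbours in this order overlapped from Jun down to Fos, and those of Jund and Junb, Junb and Jun, and Fos and Fosb did not. In regressing tumours Egr1, at 25.6 ± 11.6 FPKM, was on a level with Junb (21.8 ± 5.94 FPKM), and in progressing tumours Fos reached 11.0 ± 12.3 FPKM beside Jun at 11.4 ± 12.4 FPKM, with errors larger than the means.

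**Figure D1:**
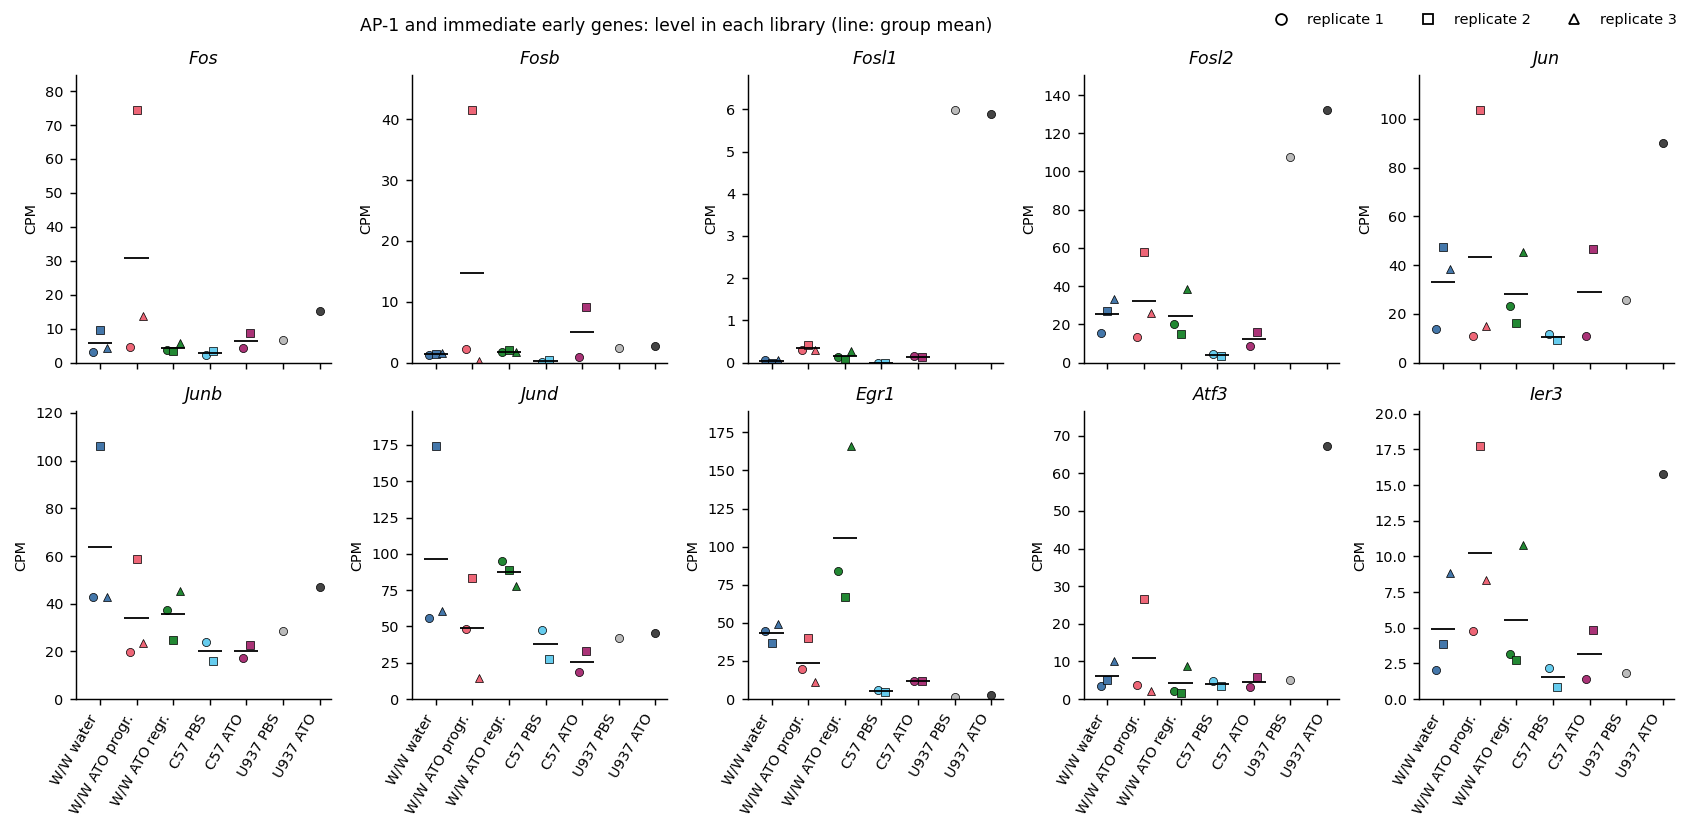
Level of each of the 10 genes in every library, in CPM scaled by TMM within the W/W and C57 tables and by the total count in U937. Points are libraries, marker shape gives the replicate and the line is the group mean; progressing replicate 2 stands at the top of its group for all 10 genes, and Egr1 is highest in the 3 regressing libraries.

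Fos encodes the prototype FOS protein, whose mRNA is induced and lost within an hour of a signal. In the W/W lymphomas Fos was at 3.02, 9.68 and 4.25 CPM in the water libraries, 4.43, 74.5 and 13.6 CPM in the progressing libraries and 3.83, 3.31 and 5.72 CPM in the regressing libraries. Progressing replicate 2 stood far above all other libraries, and the 3 groups overlapped. The fitted log2 fold change was 2.45 (SE 0.900) in progressing against water tumours with an edgeR adjusted p of 0.101. In regressing against progressing tumours it was -2.84 (SE 0.915, edgeR adjusted p = 0.0643). Without progressing replicate 2 the progressing-against-water value was 0.72. In 1 of 6 fits that left out a library, the one without progressing replicate 1, Fos was called in both comparisons (edgeR adjusted p = 0.0411 and 0.0296).

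Fosb, a FOS protein whose splice form persists after repeated stimulation in neurons, followed the same library. Its levels were 1.16, 1.45 and 1.54 CPM in water, 2.21, 41.6 and 0.293 CPM in progressing and 1.67, 2.04 and 1.71 CPM in regressing libraries. The lowest and the highest values of the gene were both in progressing tumours, and all 3 regressing libraries lay narrowly above all 3 water libraries. The log2 fold change of progressing over water tumours was 3.40 (SE 1.31, edgeR adjusted p = 0.114), and without progressing replicate 2 it was -0.09.

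Fosl2, a FOS protein without a strong transactivation domain, was at 15.5, 26.8 and 33.1 CPM in water, 13.2, 57.9 and 26.1 CPM in progressing and 20.2, 15.1 and 38.4 CPM in regressing libraries. The groups overlapped throughout, and its fitted log2 differences lay between -0.40 and 0.36 in the 3 pairwise comparisons. Fosl1, the other such FOS protein, had 0 to 5 counts in every W/W library. It was too low to be tested.

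Jun was at 13.7, 47.6 and 38.3 CPM in water, 10.9, 103.7 and 15.0 CPM in progressing and 23.3, 16.1 and 45.4 CPM in regressing libraries. Again progressing replicate 2 was highest, while its 2 fellow replicates lay below or near the lowest water library. Junb was at 42.8, 106.0 and 42.7 CPM in water, 19.9, 58.7 and 23.3 CPM in progressing and 37.5, 24.6 and 45.5 CPM in regressing libraries. Jund was at 55.6, 174.0 and 60.8 CPM in water, 48.3, 83.4 and 14.7 CPM in progressing and 94.8, 89.0 and 77.8 CPM in regressing libraries. Both Junb and Jund peaked in water replicate 2, the library that also had the highest summed macrophage markers (1902 CPM, against 203 to 921 CPM in the other 8) and B-cell markers (3149 CPM, against 4.12 to 1174 CPM). Their part in these values was not tested. In the table, Jun overlaps the antisense gene Junos, and since use of strand in counting is not given in the sources used here, reads of the pair cannot be separated.

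Egr1 was the 1 member called between the outcomes. It is encoded on chromosome 18, at 34859823 to 34864984 on the + strand of GRCm38 (ENSMUSG00000038418), and in thymocytes it is a known early target of T-cell receptor signalling. Its level was 44.6, 36.9 and 49.2 CPM in water, 19.7, 40.3 and 11.1 CPM in progressing and 84.1, 66.8 and 165.7 CPM in regressing libraries. All 3 regressing libraries lay above all other W/W libraries, and progressing tumours overlapped water. Egr1 was 4.45-fold higher in regressing than in progressing tumours (log2 fold change 2.15, SE 0.498, edgeR adjusted p = 0.0252). Against water the log2 fold change of regressing tumours was 1.28 (SE 0.484) and did not pass the test (edgeR adjusted p = 0.117), nor did that of progressing tumours, at -0.88 (SE 0.482, edgeR adjusted p = 0.260).

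The call on Egr1 between the outcomes was lost in 5 of 6 fits that left out 1 library. The log2 fold change then ranged from 1.81 to 2.83, and the edgeR adjusted p reached 0.0721 without regressing replicate 1, 0.0537 without regressing replicate 2, 0.0706 without regressing replicate 3, 0.0565 without progressing replicate 1 and 0.0706 without progressing replicate 3. Without progressing replicate 2 it was 0.0200. The fit without progressing replicate 1 called Fos in place of Egr1 (edgeR adjusted p = 0.0296). In sum over 8 thymic epithelium markers, the same tumours ranged from 41.5 to 102 CPM when progressing, 1480 to 1689 CPM when regressing and 157 to 915 CPM on water, with 6 of 8 markers called higher in regressing than in progressing tumours and none at 0. T-cell markers summed to 1725 to 2246 CPM in progressing and 2486 to 3901 CPM in regressing tumours, with 3 of 8 called higher (Cd2, Cd5 and Cd28) and none at 0. Markers of double-positive thymocytes summed to 2185 to 3202 CPM in progressing and 4565 to 9371 CPM in regressing tumours, with 0 of 8 called, and adipocyte markers reached 3804 CPM in regressing replicate 3, where Egr1 was highest. Whether these cells carry the Egr1 difference, or those of Egr2, Egr3 and Maf described further on, was not tested.

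Atf3, a stress-induced leucine zipper factor that represses many promoters, was at 3.54, 4.95 and 10.2 CPM in water, 3.75, 26.5 and 2.20 CPM in progressing and 2.04, 1.69 and 8.68 CPM in regressing libraries. Ier3, which encodes a small regulator of survival signalling, was at 2.06, 3.89 and 8.81 CPM in water, 4.74, 17.7 and 8.36 CPM in progressing and 3.15, 2.75 and 10.8 CPM in regressing libraries. The groups overlapped for both genes. Neither passed the test in any comparison of W/W tumours, with edgeR adjusted p between 0.357 and 0.951.

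Calls on the 9 tested members are set here beside the share of all genes called in the W/W comparisons. With so few members, 1 call more or less changes their share strongly, and no difference from all genes is read from it. In regressing against water tumours 0 of 9 tested members were called, where 7.7% of 18119 tested genes were, and 1 member (Egr1) had an unadjusted p under 0.05. DESeq2 called none there, and 15.7% of all genes. In progressing against water tumours 0 of 9 were called, where 11.9% of genes were, and Fos and Fosb had an unadjusted p under 0.05. DESeq2 called both, 2 of 9 where it called 18% of all genes. In regressing against progressing tumours 1 of 9 was called, where 12.6% of genes were, and Egr1, Fos and Fosb had an unadjusted p under 0.05. DESeq2 called these 3, where it called 19.1% of all genes. With both ATO outcomes set against water 0 of 9 were called, where 10.9% of genes were, none had an unadjusted p under 0.05 and DESeq2 called none (16.2% of all genes). Water libraries enter 3 of these comparisons, which are therefore not independent.

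The median log2 fold change of the 9 members was -0.15 in regressing against water, 0.38 in progressing against water and -0.61 in regressing against progressing tumours. Over all tested genes it was -0.11, -0.04 and -0.07. Groups did not overlap for 2 of 9 members in regressing against water tumours (40.1% of all tested genes), for 0 in progressing against water (26.6%) and for 1 in regressing against progressing tumours (42%).

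**Figure D2:**
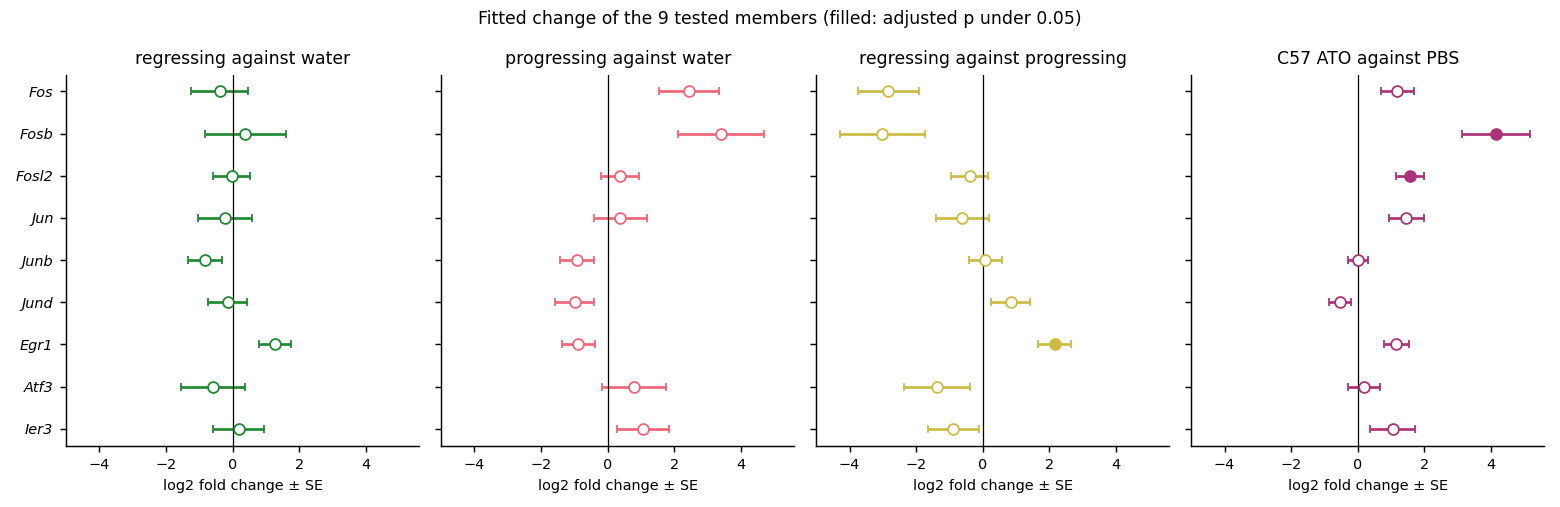
Fitted log2 fold change with its standard error for the 9 tested members in 3 W/W comparisons and in the C57 grafts; filled points have an edgeR adjusted p under 0.05. Egr1 is filled between regressing and progressing tumours, and Fosb and Fosl2 are filled in the grafts.

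Progressing replicate 2 held the group's highest level of all 10 members and the highest of all 9 W/W libraries for 7 of them, Egr1, Junb and Jund being the exceptions. It differed from the other progressing libraries in further measures. Its mitochondrial share was 8.83%, against 4.70% and 4.86%. Its fibroblast markers summed to 1336 CPM (786 and 1031 CPM in the others), and its adipocyte markers to 1199 CPM (123 and 245 CPM). Macrophage markers stood at 921 CPM (599 and 203 CPM) and neutrophil markers at 71.4 CPM (13.2 and 2.93 CPM), with no marker of these 4 lists at 0 in it. Their part in the high immediate early transcripts was not tested.

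The 2 families were also summed by FPKM. The FOS family summed to 3.22 to 6.0 FPKM in water, to 3.99, 35.3 and 8.96 FPKM in progressing and to 3.69 to 7.12 FPKM in regressing libraries. Fos made up 50.1% to 71.1% of that sum in progressing and 35.7% to 42.3% in regressing libraries, with no overlap, and 32.8% to 57.9% in water libraries, which overlapped both. Fosl2 supplied most of the remainder in 8 of the 9 libraries, and in progressing replicate 2 Fosb (15.0%) was above Fosl2 (13.4%). The JUN family summed to 63.7 to 121 FPKM in water, 27.2 to 91.1 FPKM in progressing and 79.8 to 98.0 FPKM in regressing libraries. Jund was its largest component in 8 of the 9 libraries, at 43.5% to 74.1%, and in progressing replicate 3 Junb was, at 48.8%.

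**Figure D3:**
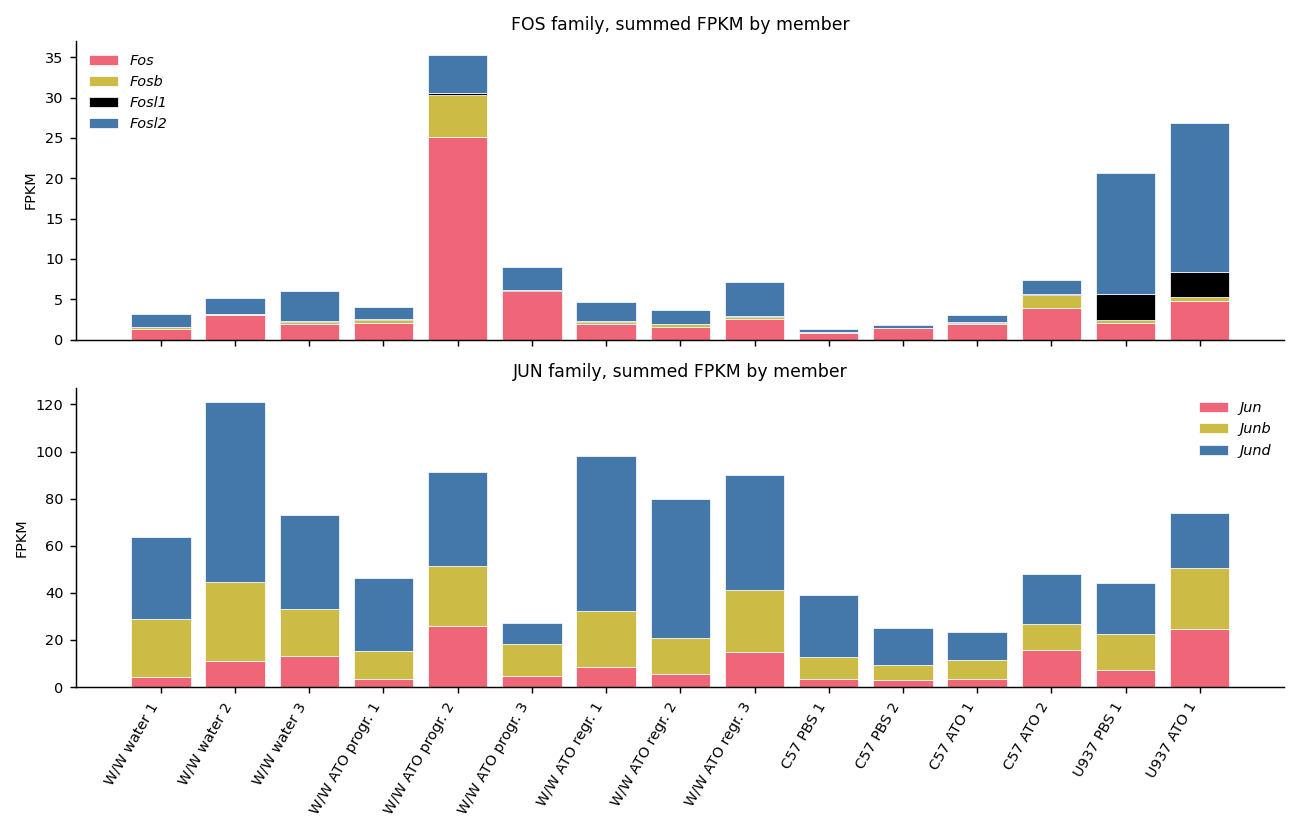
Summed FPKM of the FOS family (top) and the JUN family (bottom) in each of the 15 libraries, stacked by gene. Progressing replicate 2 has the tallest FOS bar, at 35.3 FPKM, most of it Fos, whereas in both U937 libraries FOSL2 forms the largest part.

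The rest of the pathway was read from lists of genes that work beside, above or below AP-1. Over all tested genes, 6.45% were called higher and 6.18% lower in regressing than in progressing tumours, 4.77% higher and 7.13% lower in progressing than in water tumours, and 3.13% higher and 4.57% lower in regressing than in water tumours. Of 33 tested other immediate early genes, 2 were higher and 1 lower in regressing than in progressing tumours, with a list median of 0.49 against -0.07 over all genes. The 2 were Egr3 and Egr2, zinc finger relatives of Egr1 that restrain T-cell activation. Egr3 was at 84.6, 13.2 and 81.4 CPM in water, 2.09, 0.759 and 0.440 CPM in progressing and 8.70, 8.03 and 29.5 CPM in regressing libraries. Progressing libraries lay below all others, and water replicate 2 lay among the regressing libraries. The fitted log2 difference was 3.78 for regressing minus progressing tumours (SE 0.875, edgeR adjusted p = 0.0252) and -5.74 for progressing minus water tumours (SE 0.948, edgeR adjusted p = 0.0062).

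Egr2 was at 19.9, 1.45 and 34.6 CPM in water, 3.26, 1.94 and 3.52 CPM in progressing and 26.1, 20.1 and 34.1 CPM in regressing libraries. The regressing libraries lay above all progressing ones, and water libraries reached both ends. The log2 fold change between the outcomes was 3.19 (SE 0.866, edgeR adjusted p = 0.0388). Leaving out 1 library ended the call on Egr2 in all 6 fits (edgeR adjusted p 0.0748 to 0.105) and that on Egr3 in 5 of 6. The gene that was lower was Ccn2, a matricellular growth regulator, at -3.57 (SE 0.770, edgeR adjusted p = 0.0206), held in 3 of those 6 fits.

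**Figure D4:**
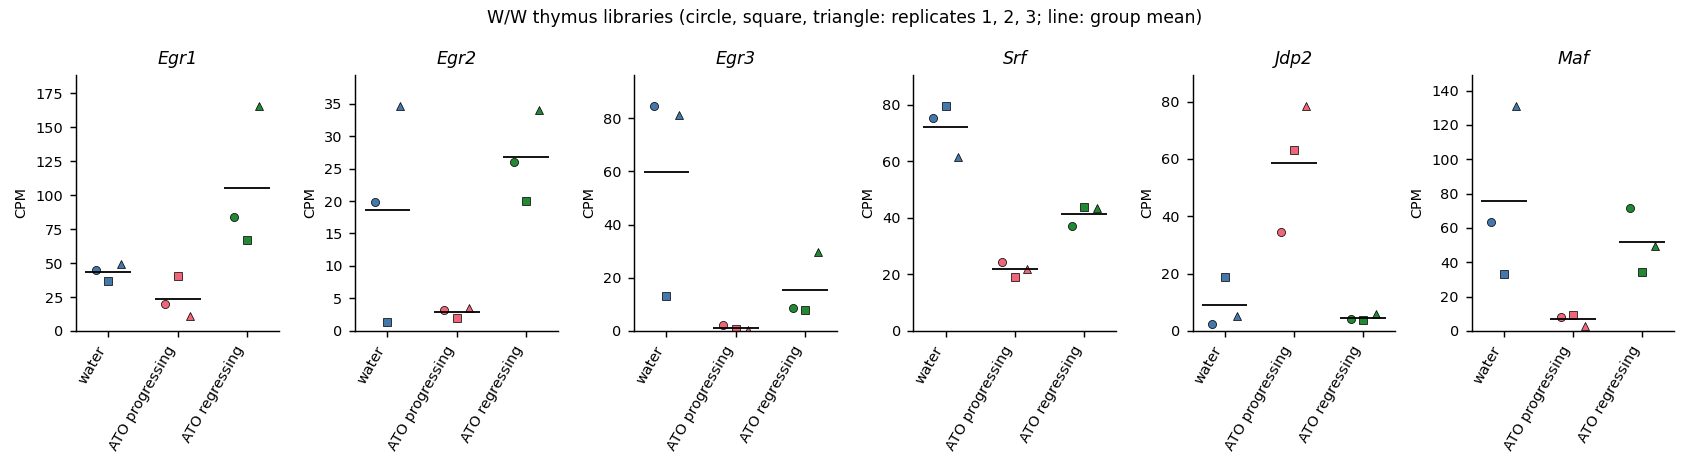
CPM of Egr1, Egr2, Egr3, Srf, Jdp2 and Maf in the 9 W/W libraries, by group, with the group mean as a line. Egr1, Egr2, Egr3, Srf and Maf are higher and Jdp2 lower in all 3 regressing than in all 3 progressing libraries.

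Against water, 4 of the 33 other immediate early genes fell in progressing tumours and none rose. Besides Egr3 these were Klf2, a factor of T-cell quiescence and exit from the thymus (log2 fold change -3.32, SE 0.741), the growth regulator Myc (-2.82, SE 0.684) and Ier2 (-1.81, SE 0.495). In regressing tumours 1 of 33 fell, Myc, at -3.35 (SE 0.700, edgeR adjusted p = 0.0228). Myc was at 199.1, 993.9 and 170.7 CPM in water, 70.7, 87.6 and 35.2 CPM in progressing and 32.8, 36.8 and 64.5 CPM in regressing libraries. All 6 ATO libraries were below all 3 water libraries, of which replicate 2 was the highest, as it was for B-cell markers. Without it the log2 fold change of Myc was -1.51 in progressing and -1.97 in regressing tumours, and both calls held. With 1 library left out, the call on Egr3 held in all 6 fits, on Klf2 in 5, on Myc in 4 in progressing and 3 in regressing tumours, and on Ier2 in 1. Cell type markers moved in the same comparison of progressing with water tumours. Of these, 5 of 6 B-cell, 3 of 8 T-cell and 5 of 8 thymic epithelium markers were called lower, while 1 T-cell and 5 of 8 double-positive thymocyte markers were called higher. B-cell markers summed to 68.2 to 3149 CPM in water and 4.12 to 39.4 CPM in progressing tumours, where Ms4a1 was at 0 in replicate 1. Double-positive markers summed to 210 to 531 CPM in water and 2185 to 3202 CPM in progressing tumours, with Ptcra at 0 in water replicate 2 and Rag2 at 0 in water replicate 3. Their part in the falls of these genes, and of Maf and Batf, was not tested.

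Among the 14 other leucine zipper partners, 2 rose and 2 fell in progressing against water tumours. Jdp2, a repressor that competes with FOS for JUN, was at 2.51, 18.8 and 5.36 CPM in water, 34.7, 63.0 and 78.5 CPM in progressing and 4.07, 3.73 and 5.92 CPM in regressing libraries. All progressing libraries were above the rest. Its log2 fold change was 2.72 (SE 0.676, edgeR adjusted p = 0.0282) against water, and in regressing against progressing tumours it was -3.68 (SE 0.707, edgeR adjusted p = 0.0162). Mafk, a small MAF protein without a transactivation domain, had 1.40 (SE 0.400) and -1.35 (SE 0.399) in these comparisons.

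Maf, a helper T-cell factor, went the other way. It was at -3.48 (SE 0.597, edgeR adjusted p = 0.0072) for progressing minus water and at 2.93 (SE 0.583, edgeR adjusted p = 0.0178) for regressing minus progressing tumours on the log2 scale. Batf, which pairs with JUN in activated lymphocytes, was -3.23 (SE 0.569) in progressing against water tumours. Mafg was 1.18 (SE 0.262) in regressing against progressing tumours. No partner was called in regressing against water tumours. With 1 library left out, the calls on Maf and Batf against water held in all 6 fits and that on Maf between the outcomes in 4, on Jdp2 in 3 for each comparison, on Mafg in 2 and on Mafk in 1 for each.

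Upstream, 6 of 30 MAP kinase and serum response factor genes were lower in progressing than in water tumours and none higher. They included the p38 kinases Mapk12 (log2 fold change -3.10, SE 0.761) and Mapk11 (-2.58, SE 0.584), and the kinases at the head of the cascade Map3k5 (-2.05, SE 0.470) and Map3k1 (-1.78, SE 0.511). Srf, the factor that binds the CArG box shown for EGR1, was at 75.3, 79.5 and 61.4 CPM in water, 24.2, 19.0 and 22.0 CPM in progressing and 37.2, 43.8 and 43.5 CPM in regressing libraries. The 3 groups of Srf levels did not overlap. In regressing against progressing tumours 4 of the 30 were higher and none lower: Mapk11 at 2.19 (SE 0.576), Map3k1 at 2.00 (SE 0.515), Map3k5 at 1.76 (SE 0.465) and Srf at 0.93 (SE 0.273, edgeR adjusted p = 0.0490). No gene of this list was called in regressing against water tumours. Between the outcomes, the calls on the 3 kinases held in 1 of 6 fits that left out a library and that on Srf in none (edgeR adjusted p 0.0585 to 0.164). Against water the kinase calls held in 1 to 4 of 6.

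Of 11 MAP kinase phosphatases, which switch the cascade off, Dusp10 rose in both outcomes, by 2.20 (SE 0.445) in progressing and 1.89 (SE 0.441) in regressing tumours on the log2 scale against the same water libraries. Dusp9 rose (3.15, SE 0.716) and Dusp2 fell (-1.59, SE 0.413) in progressing tumours. Between the outcomes Dusp6 was higher (1.54, SE 0.388) and Dusp9 lower (-4.22, SE 0.758) in regressing tumours. With 1 library left out, the call on Dusp10 held in all 6 fits in progressing and in 1 of 6 in regressing tumours, that on Dusp9 in 3 against water and 4 between the outcomes, that on Dusp2 in 2 and that on Dusp6 in 1.

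Of 17 tested genes known as AP-1 targets, Cd44, a hyaluronan receptor of activated T cells, fell against water in both outcomes, by 1.11 (SE 0.296) in progressing and 1.61 (SE 0.300) in regressing tumours on the log2 scale. Csf2, encoding a T-cell cytokine, had at most 2 counts in any progressing library and was at least 32.7-fold lower there than in water libraries (3 counts per library taken as the floor). Its water levels were 16.3, 0.381 and 4.80 CPM, and without water replicate 1 the bound was 11.8-fold. Between the outcomes Plau (1.88, SE 0.477) was higher, and Spp1 (-4.94, SE 0.827), Timp1 (-3.12, SE 0.804) and Lgals3 (-1.96, SE 0.516) were lower in regressing tumours. With 1 library left out, the call on Spp1 held in 5 of 6 fits, on Timp1 in 2, on Lgals3 in 1 and on Plau in none (edgeR adjusted p 0.0527 to 0.105). The call on Cd44 held in 1 fit in progressing and 4 in regressing tumours, and that on Csf2 in 2. Spp1 and Timp1 are secreted proteins of macrophages and stroma. Fibroblast markers moved with them, at 786 to 1336 CPM in progressing and 131 to 439 CPM in regressing tumours, with 3 of 7 called lower and none at 0. Macrophage markers overlapped, at 203 to 921 CPM in progressing and 398 to 647 CPM in regressing tumours, with 0 of 8 called. The part of these cells was not tested.

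In the C57 grafts 2 of 9 tested members rose with ATO and none fell, where 13.9% of 15468 tested genes were called, 7.37% higher and 6.57% lower. DESeq2 called 3 of 9 (Fosb, Fosl2 and Egr1), where it called 17.9% of all genes. Mitochondrial transcripts took 0.521% and 1.02% of the counts after PBS, against 5.98% and 4.03% after ATO. T-cell markers summed to 4559 to 5051 CPM after PBS and 2733 to 3678 CPM after ATO, with 1 of 8 called lower and none at 0. The part of either in the graft changes was not tested. The members' median log2 fold change was 1.16 against 0.04 over all genes. With library totals in place of TMM, the median of all genes shifted by 0.193 and higher calls went from 52.9% to 77.3% of calls. Groups did not overlap for 4 of 9 members, as for 61.7% of tested genes.

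Fosb was at 0.145 and 0.402 CPM in the PBS grafts and at 0.884 and 9.19 CPM in the ATO grafts, with 2, 6, 12 and 140 counts behind these levels. The groups did not overlap, and ATO replicate 2 lay well above replicate 1. Its log2 fold change was 4.15 (SE 1.01, edgeR adjusted p = 0.0233). Without ATO replicate 2 it was 1.63 (edgeR adjusted p = 0.395), and without PBS replicate 1 the edgeR adjusted p was 0.0622.

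Fosl2 was at 4.58 and 3.62 CPM after PBS and 8.39 and 15.8 CPM after ATO. Its groups did not overlap either. The log2 fold change was 1.56 (SE 0.425, edgeR adjusted p = 0.0340), a call that ended without ATO replicate 2 (1.02, edgeR adjusted p = 0.146), without PBS replicate 1 (0.0921), without PBS replicate 2 (0.123) and with the replicate number as a block (0.0773). Where 1 replicate is left out, the lone sample of its group is assumed to vary like the other group.

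Egr1 in the grafts was at 6.10 and 4.29 CPM after PBS and 11.6 and 11.6 CPM after ATO, without overlap. It did not pass the test (log2 fold change 1.16, SE 0.378, edgeR adjusted p = 0.0611), though DESeq2 called it (adjusted p = 0.0404). Fos was at 2.25 and 3.42 CPM after PBS and 4.34 and 8.60 CPM after ATO (log2 fold change 1.19, SE 0.485, edgeR adjusted p = 0.117). Jun was at 11.6 and 9.45 CPM after PBS and 11.0 and 46.7 CPM after ATO, so that 1 ATO graft overlapped the PBS grafts (1.46, SE 0.517, edgeR adjusted p = 0.0779). ATO replicate 2 was the higher ATO graft for 8 of the 10 members.

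Junb (23.9 and 16.02 against 17.4 and 22.6 CPM), Jund (47.7 and 27.5 against 18.6 and 32.8 CPM), Atf3 (4.72 and 3.35 against 3.17 and 5.97 CPM) and Ier3 (2.18 and 0.871 against 1.40 and 4.86 CPM) overlapped between PBS and ATO grafts. Fosl1 had 0 counts in both PBS grafts and 2 in each ATO graft. In this table Junb overlaps Prdx2, an abundant gene on the opposite strand, so its level is uncertain.

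ATO replicate 2 of the grafts had fibroblast markers at 1669 CPM, against 644 CPM in ATO replicate 1 and 245 to 492 CPM after PBS, with 4 of 7 called higher with ATO and none at 0. Neutrophil markers were at 22.5 CPM, against 5.45 CPM in ATO replicate 1 and 2.08 to 4.51 CPM after PBS, with 1 of 3 tested called and Ngp at 0 in 2 of the 4 grafts. Muscle markers were at 296 and 338 CPM after ATO and 209 and 11.7 CPM after PBS, with 2 of 7 called higher. Macrophage markers were at 348 to 483 CPM after PBS and 122 to 173 CPM after ATO, with 3 of 8 called lower. The part of these cells in the graft values was not tested.

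Around the members, 1 of 32 tested other immediate early genes rose in the grafts, Ccn1, a matricellular signalling protein (log2 fold change 1.39, SE 0.412, edgeR adjusted p = 0.0448). The leucine zipper factor Atf7 rose by 1.11 (SE 0.255), 1 of 12 partners tested. Of 29 tested upstream genes, Braf (1.10, SE 0.302), Mrtfb (0.98, SE 0.270) and Elk4 (0.94, SE 0.239) rose and Map2k2 (-1.03, SE 0.227) fell. Elk4 and Mrtfb encode cofactors of serum response factor. None of 10 phosphatases was called, and of 14 AP-1 targets the angiogenic factor Vegfa rose (1.06, SE 0.254). With 1 graft left out, the calls on Atf7, Map2k2 and Vegfa held in 3 of 4 fits, on Braf in 2 and on Ccn1, Mrtfb and Elk4 in 1.

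In U937 cells, with 1 library per group and therefore no test, 4 of the 10 members were at least 2-fold higher after ATO and none 2-fold lower. Of 13722 genes with a mean of 1 CPM or more, 23.8% were past 2-fold, 15.3% higher and 8.53% lower, on a log2 ratio of CPM with a pseudocount of 1. The members' median log2 ratio was 0.63 against 0.13 over all kept genes. With the libraries scaled by the median ratio of gene counts, that all-gene median moved by -0.168 and higher genes went from 64.2% to 51.2% of those past 2-fold.

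ATF3 was at 5.15 CPM after PBS and 67.2 CPM after ATO, from 92 and 1105 counts. The ratio was 13.05 (95% counting interval 10.5 to 16.3). IER3 was at 1.79 and 15.8 CPM (32 and 260 counts, ratio 8.83, 6.10 to 13.2). By the log2 ratio with a pseudocount of 1, 65 of the 13722 kept genes lay above ATF3 (3.47) and 217 above IER3 (2.59).

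JUN was at 25.6 and 90.0 CPM, a ratio of 3.51 (3.16 to 3.91), and FOS at 6.49 and 15.1 CPM, a ratio of 2.33 (1.86 to 2.93). Of the 4, FOS was below 2-fold when the libraries were scaled by the median ratio (log2 ratio 0.94) and with a pseudocount of 5 (0.81), and the other 3 were above it in both. JUNB was at 28.6 and 46.8 CPM (ratio 1.64, 1.46 to 1.83), and EGR1 at 1.34 and 2.49 CPM from 24 and 41 counts (1.86, 1.09 to 3.21). Below these in ratio lay the remaining members, of which FOSL2 had an interval above 1 and FOSB, JUND and FOSL1 had intervals that spanned 1. FOSL2 was at 107.8 and 132.2 CPM (1.23, 1.15 to 1.30), FOSB at 2.35 and 2.73 CPM (1.16, 0.747 to 1.82), JUND at 41.7 and 45.2 CPM (1.08, 0.976 to 1.20) and FOSL1 at 5.99 and 5.90 CPM (0.985, 0.740 to 1.31). The sign for JUND turned under the median ratio, to -0.06 on the log2 scale. Intervals cover counting error, not the spread between cultures. FOSB overlaps ERCC1 and JUNB overlaps HOOK2, each on the opposite strand. Since use of strand in counting is not given, the levels and ratios of FOSB and JUNB are uncertain.

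**Figure D5:**
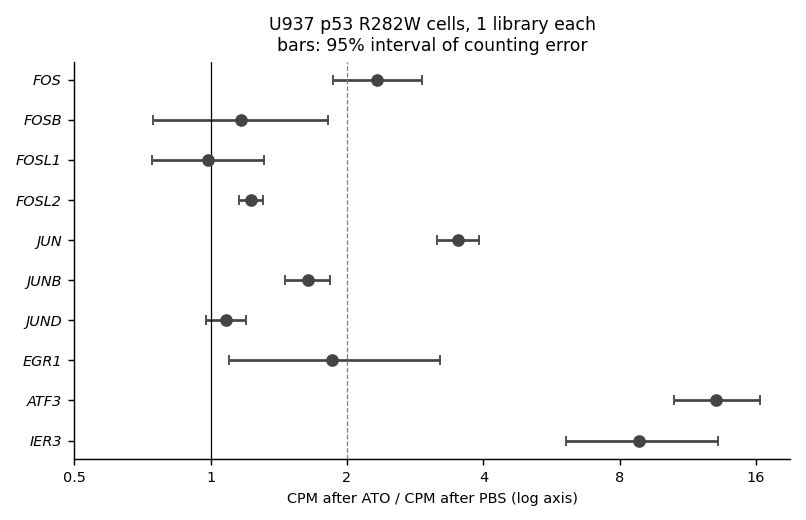
Ratio of CPM after ATO to CPM after PBS in U937 cells for the 10 members, on a log axis, with 95% intervals for counting error; the dashed line marks 2-fold. ATF3 (13.05), IER3 (8.83), JUN (3.51) and FOS (2.33) lie past the line.

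By FPKM the order in U937 cells differed from that of the lymphomas in that FOSL2 and FOSL1 stood high and EGR1 stood low. EGR1 was at 0.43 FPKM after PBS and 0.79 FPKM after ATO, against 9.42 FPKM in the water-treated lymphomas. FOSL2 was at 15.1 FPKM after PBS, beside JUNB at 15.6 and JUND at 21.6 FPKM, and FOSL1 at 3.17 FPKM was above FOS at 2.04 FPKM. FOSL2 gave 72.8% of the FOS family after PBS and 68.8% after ATO, while the share of FOS was 9.86% and 17.7%. JUN went from 15.9% to 33.6% of the JUN family. After ATO, JUNB (25.6 FPKM), JUN (24.8 FPKM) and JUND (23.4 FPKM) stood close together.

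Of the wider immediate early list, 12 of 26 kept genes were past 2-fold higher after ATO in U937 and 2 lower, with a median log2 ratio of 0.92. PPP1R15A, which restores translation after stress, was at 26.8 and 396 CPM (ratio 14.8), the RNA-decay factor ZFP36L1 at 2.69 and 30.6 CPM (11.4) and TRIB1 at 2.01 and 17.1 CPM (8.48). MYC was at 195 CPM after PBS and 9.78 CPM after ATO, a ratio of 0.0501 (0.0425 to 0.0587). Myc was lower after ATO in the W/W tumours too, whereas in the C57 grafts it was at 288.5 and 216.3 CPM after PBS and 280.3 and 324.1 CPM after ATO and was not called. PER1 had a ratio of 0.456.

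Of 13 kept leucine zipper partners 6 were past 2-fold higher and none lower, among them MAFF (4.31 and 54.8 CPM, ratio 12.7) and MAFG (108 and 348 CPM, ratio 3.22), small MAF proteins. Of 28 kept upstream genes 2 were higher, including MAP3K8 (2.40), and 1 lower, MAPKAPK2 (0.390). Among 9 kept phosphatases DUSP5 (9.59), DUSP1 (7.17) and DUSP10 (4.35) were higher and DUSP6 (0.345) lower. VEGFA (4.0), SPHK1 (2.68) and HBEGF (2.64) were the 3 of 9 kept AP-1 targets past 2-fold higher, and none was lower. Over the same pair of libraries the myeloid markers ELANE, AZU1, PRTN3, LYZ and CEBPA, 5 of 9 kept, were more than 2-fold lower. Their relation to these differences was not tested.

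The members' values in the 3 systems are set side by side here, without a test between tables. Atf3 had log2 fold changes of -0.59 (SE 0.972), 0.79 (SE 0.971) and 0.18 (SE 0.472) in regressing tumours, progressing tumours and C57 grafts, none called, against a log2 ratio of 3.47 in U937. Fosb was called in the grafts (4.15, SE 1.01), with 12 and 140 counts in the ATO libraries. Against water it had 3.40 (SE 1.31) in progressing and 0.38 (SE 1.22) in regressing tumours, neither called, and its ratio in U937 was 1.16. The U937 ratio is uncertain, since FOSB overlaps ERCC1 on the opposite strand. Egr1 had positive values in regressing tumours against water (1.28), the grafts (1.16) and U937 (0.58), and a negative one in progressing tumours against water (-0.88). Junb and Jund were called in none of the comparisons. Dusp10 was higher after ATO in progressing and regressing W/W tumours and in U937, and was not called in the grafts.

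The genes most like a member over the 9 W/W libraries, by Pearson r of log2 CPM among 15000 named genes, were Dctn3 (0.971) and Smim27 (0.966) for Fos, and Rab13 (0.968) and Alox5ap (0.965) for Jun. For Egr1 they were Lgr4 (0.969), Ifi27 (0.968) and Oplah (0.966). Atf3 had lower values, led by Plat (0.902). Without progressing replicate 2, over 8 libraries, r was 0.920 for Fos with Dctn3, 0.963 for Jun with Rab13, 0.972 for Egr1 with Lgr4 and 0.827 for Atf3 with Plat. These are the highest of many values over libraries that share groups and composition, and they are a description.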

How the data were processed

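Tumour and cell line RNA was sequenced in 15 libraries: 9 W/W, 4 C57 and 2 U937. The labels' protocols name TRIzol for RNA and a SMARTer mRNA-Seq kit for libraries, and include a cell culture passage that does not describe tumours. The submitters' processing notes name FastQC 0.10.1, cutadapt 1.9.1, HISAT2 2.0.1 and a GRCm38 build. The counting program, annotation and use of strand are not given in the sources used here. For each system the authors deposited a table with raw counts and FPKM. Coordinates equalled those of GENCODE vM21 (GRCm38) for 98.9% of W/W genes and of v44 (GRCh38) for 98.1% of U937 genes. For C57 genes 2.60% equalled vM21, so their coordinates are not printed and served only to find genes that overlap within that table.

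The edgeR 4.0.16 quasi-likelihood test (R 4.3.3, filterByExpr, TMM, Benjamini-Hochberg adjusted p under 0.05 over all tested genes) was run on counts, with the 9 W/W libraries as 3 groups and the 4 C57 libraries alone. Called means past that threshold or, in U937, past 2-fold on the log2 ratio with pseudocount 1, for means of 1 CPM or more. FPKM was used to compare genes. Named genes outside the 10 members were, per list and direction, at most 4 called genes of largest change (mean of 1 CPM or more; U937: 10 CPM in either library). Genes with at most 3 counts in every library of a group were given as a bound. The members and lists were chosen with earlier results of these data known. Alternatives were DESeq2 1.42.0, RLE factors, limma 3.58.1 voom, no filter, library totals, a replicate block, pairwise fits and leaving out each library. The scripts were tested on simulated data.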

Additional observations from a re-analysis of the deposited data

Results flagged for a closer look

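The contrast of ATO with water differed between the 2 outcomes for Egr1 among the members, as tested by the direct comparison of regressing with progressing tumours in the same fit. The differences below are log2 fold changes of regressing minus progressing tumours at an edgeR adjusted p under 0.05, with 3 libraries a group. The groups did not overlap for any of these genes, as for 42% of all tested genes. Egr1 differed by 2.15. Of its relatives, Egr3 differed by 3.78 and Egr2 by 3.19. Ccn2 was lower, at -3.57.

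Among the leucine zipper partners Maf differed by 2.93 and Mafg by 1.18, while Jdp2 was at -3.68 and Mafk at -1.35. Upstream, Mapk11 differed by 2.19, Map3k1 by 2.00, Map3k5 by 1.76 and Srf by 0.93. Of the phosphatases, Dusp6 was at 1.54 and Dusp9 at -4.22. Of the AP-1 targets, Plau was at 1.88, Spp1 at -4.94, Timp1 at -3.12 and Lgals3 at -1.96. With 1 library left out, the calls on Egr2, Srf and Plau held in none of 6 fits. Those on Egr1, Egr3, Mafk, Mapk11, Map3k1, Map3k5, Dusp6 and Lgals3 held in 1, and those on the other genes named in this section in 2 to 5. Thymic epithelium, B-cell, T-cell (3 of 8 higher) and fibroblast markers also differed between these outcomes, and their part was not tested.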

How the results depend on the processing

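The direction of Egr1 between the outcomes, and of Fosb and Fosl2 in the grafts, held under all alternatives run. The members called in regressing against water tumours were 0, and 1 without a filter on low counts. In progressing against water tumours they were 0, and 2 with DESeq2 and with no filter. Between the outcomes they were 1, and 3 with DESeq2 and with no filter. In the grafts they were 2, with 3 by DESeq2, with no filter and with library totals, and 1 by limma-voom. In U937 4 members were past 2-fold, and 3 with a pseudocount of 5 or the median-ratio scaling. Leaving out each library gave 0 to 0 members in regressing against water, 0 to 1 in progressing against water, 0 to 1 between the outcomes, and 0 to 5 in the grafts (0 without PBS replicate 1, 5 without ATO replicate 1).

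Genes called in regressing against water tumours were 1396, and 3144 with DESeq2, 2689 with no filter and 60 to 1190 with a library left out. In progressing against water tumours they were 2157, and 3859 with DESeq2, 3594 with no filter, 882 with the pair of groups alone and 907 to 2557 with a library left out. Between the outcomes they were 2288, and 4100, 3621 and 177 to 2000 respectively for DESeq2, no filter and a library left out. For both outcomes against water they were 1968, and 3357, 3273 and 656 to 2153. In the grafts they were 2157, with 3274 without a filter and 685 to 2420 with a library left out. Fewer samples tested is part of the construction of the last ranges, and the cause of the other differences was not tested.

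W/W libraries with the same replicate number correlated at -0.124 to 0.136 over 9 pairs, 1 of them over 0.1, and 6 of 9 libraries were most like one of their own number. With the replicate number as a block, genes called were 1405 in progressing against water, 1230 for both outcomes against water and 1350 in the grafts, and members called in the grafts were 1. A crossed pairing of the grafts, added after seeing the data, gave 4 members and 3298 genes. With library totals in place of TMM, also added then, the median of all genes shifted by 0.204 in regressing against water, 0.201 between the outcomes and 0.114 for both against water.

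The values that changed sign belong to members not called by edgeR in that comparison. In regressing against water tumours Fosl2 became 0.018 with DESeq2, 0.016 with RLE factors, 0.086 with no filter, 0.038 with the block, 0.037 with the pair of groups alone, and 0.15 with library totals. Jund became 0.060 with limma-voom, 0.091 with the block and 0.19 with totals, Jun 0.12 with the block and 0.0086 with totals, and Fos 0.0090 with the block. With limma-voom Jun became -0.26 in progressing against water, 0.094 between the outcomes (0.064 with the block) and -0.21 for both against water, where Atf3 became -0.42. Junb in the grafts became -0.040 with DESeq2, -0.0053 with RLE factors and -0.045 with no filter.

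With a library left out, ranges in regressing against water tumours were -0.70 to 0.33 for Fos, -0.37 to 0.23 for Fosl2, -0.60 to 0.22 for Jun, -0.43 to 0.67 for Jund and -0.60 to 0.90 for Ier3. In progressing against water they were -1.04 to 1.33 for Atf3, -0.090 to 3.99 for Fosb, -0.33 to 0.74 for Fosl2 and -1.31 to 0.84 for Jun. Between the outcomes they were -2.38 to 0.51 for Atf3, -3.60 to 0.59 for Fosb, -0.77 to 0.38 for Fosl2, -1.07 to 1.18 for Jun and -0.19 to 0.80 for Junb. For both outcomes against water they were -0.78 to 0.65 for Atf3, -0.050 to 0.38 for Egr1, -0.13 to 0.41 for Fosl2, -0.72 to 0.47 for Jun and -0.85 to 0.21 for Jund. In the grafts they were -0.37 to 0.55 for Atf3, -0.14 to 1.83 for Ier3 and -0.28 to 0.31 for Junb. The low counts of Fosl1 in mouse and of Fosb in the PBS grafts limit what depth can show for them.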
